A study of Mus musculus with 12 samples.

Results

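The genes of cholesterol and sterol metabolism were followed in mouse chondrocytes in primary culture, the cells that build cartilage matrix, after transfection with plasmids. They comprised 30 autosomal genes chosen by name, covering sterol synthesis, its control by SREBP proteins, fatty acid desaturation, movement and storage of sterols inside the cell, and efflux, out of 57010 gene IDs in the deposited tables. All 30 symbols matched 1 Ensembl gene ID each. Poly(A)-selected RNA was sequenced in 12 libraries, and every library came from wild-type mouse cells. The labels give 3 treatments with 4 libraries each: Control, WT for a wildtype plasmid, and SIRT5F101L for a mutant of SIRT5, an enzyme of mitochondria that takes malonyl groups off lysines. What the Control cells received, the promoter that drove the plasmids, the age of the mice and the time after transfection are not given in the sources used here. Nothing states that the libraries came from separate cultures or animals, so the p-values measure only the spread between these libraries.

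Cells make cholesterol from acetyl-CoA through mevalonate, squalene and lanosterol. When sterol in the endoplasmic reticulum is low, SCAP carries SREBP proteins to the Golgi, where they are cut and released to switch on the genes of synthesis and uptake, and when sterol is plentiful INSIG proteins hold SCAP back. Excess sterol is stored as esters or turned into oxysterols, which activate the LXR receptors and, with them, the exporters ABCA1 and ABCG1. In chondrocytes, sterol also modifies hedgehog proteins and feeds the membranes of the growing cell.

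Total counts per library ran from 15095357 to 24242139, so that 1 count was worth 0.0413 to 0.0662 CPM, the count scaled to library size. Every sterol gene passed the expression filter, and the lowest count of any of them in a library was 107, for Abcg1. The markers fixed for chondrocytes summed to 7990 to 10000 CPM in Control, 2249 to 2400 in WT and 1788 to 2009 in SIRT5F101L, and Chad was the 1 of 10 at 0. Col2a1 and Comp carried most of that sum, and of the 9 tested chondrocyte markers Acan (133 CPM in Control, 184 in WT) and Hapln1 (82.1 and 97.7) were called higher in WT and Hapln1 (93.0) in SIRT5F101L, with 7 lower in each. Fibroblast markers summed to 17250 to 20440, 6058 to 6881 and 5910 to 6856 CPM in the same order, and macrophage and leukocyte markers to 173 to 204, 82.0 to 94.3 and 80.1 to 106, with Itgam and Cd3e among those at 0. Col1a1 and Col3a1 carried most of the fibroblast sum, while Pdgfra went from 199.9 to 262 and 306 CPM and was the 1 of 5 tested fibroblast markers called higher in both plasmid groups. Osteoblast markers summed to 17.0 to 23.8, 4.11 to 4.63 and 3.51 to 5.17 CPM, a fall carried by Ibsp (14.7, 0.284 and 0.146) while Alpl, not called, stood at 2.85, 3.02 and 3.21. Endothelial markers summed to at most 4.52 and erythroid markers to at most 0.655 in any library, while adipocyte markers summed to 23.6 to 26.5 CPM in Control, 29.6 to 34.9 in WT and 24.6 to 37.8 in SIRT5F101L. Nearly all of the adipocyte sum was Fabp4 (24.4, 32.0 and 30.4 CPM), and Adipoq (0.423, 0 and 0.0484) and Plin1 (0.222, 0.0979 and 0.115) were lower in the plasmid groups, untested at these levels. In RNA from whole cultures, fewer cells of a type and less RNA per cell cannot be told apart, and the part these shifts play in the sterol genes was not tested. Sirt5, the gene named on the plasmids, had 9 to 16 counts per library in Control, 1 to 9 in WT and 9 to 19 in SIRT5F101L. These counts show no rise of Sirt5 over Control in the WT libraries, which lay at or below the lowest Control count. In SIRT5F101L the range overlapped with Control. The counts cover only reads assigned to the mouse gene, so an insert of another sequence could go uncounted, and plasmid expression was not tested. WT and SIRT5F101L therefore stand throughout for libraries that carry those labels. SIRT5F101L replicate 1 stood apart from its group: on the second principal component of all tested genes, which held 5.70% of the variance, it lay at 18.1, beside WT replicates 2 to 4 at 9.65 to 16.3, while the other SIRT5F101L libraries lay at -18.5 to -14.7. WT replicate 1 lay at -1.53, between these and its own group. In the median chi-square between libraries, set against sampling noise, SIRT5F101L replicate 1 was 2.61 from WT replicate 4 and 8.201 to 8.916 from its own group, and WT replicate 1 was 4.005 to 4.755 from SIRT5F101L replicates 2 to 4 and 3.632 to 5.804 from its own group. Values without SIRT5F101L replicate 1 are given where it changed a call, and leaving out WT replicate 1 changed no call of a sterol gene.

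Both plasmid groups differed from Control in most of the sterol genes, with synthesis genes mixed in direction and Abcg1 and Hsd17b7 raised the most. By the quasi-likelihood test of edgeR, with Benjamini-Hochberg adjustment over 14253 genes, 22 of the 30 genes differed in WT, 15 higher and 7 lower. The background was high, since 56.8% of all tested genes differed in that comparison, 28.7% higher and 28.1% lower. In SIRT5F101L, 21 of the 30 differed from Control, 12 higher and 9 lower, against 60.7% of all tested genes, with 30.7% of all tested genes lower. Of all genes called in SIRT5F101L, 49.4% were higher. Both comparisons use the same Control libraries and are therefore given side by side. The median log2 fold change of the 30 genes was 0.17 in WT and 0.05 in SIRT5F101L, where the medians over all tested genes were -0.01 and -0.02. Most changes were small: Abcg1 and Hsd17b7 were the 2 genes that changed at least 2-fold in each comparison, where 16.7% and 17.5% of all tested genes did. The values of the 4 libraries did not overlap with Control for 20 of the 30 genes in WT and 18 in SIRT5F101L, with 53.5% and 51.3% of all tested genes doing the same. With library totals in place of TMM scaling, the WT split became 16 higher and 3 lower, and the share of higher genes among all genes called in WT went from 50.6% to 59.2%. Without SIRT5F101L replicate 1, 24 of the 30 differed in WT, 16 higher and 8 lower, and 23 in SIRT5F101L, 12 higher and 11 lower, when 60.2% and 63.2% of all tested genes did.

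**Figure D1:**
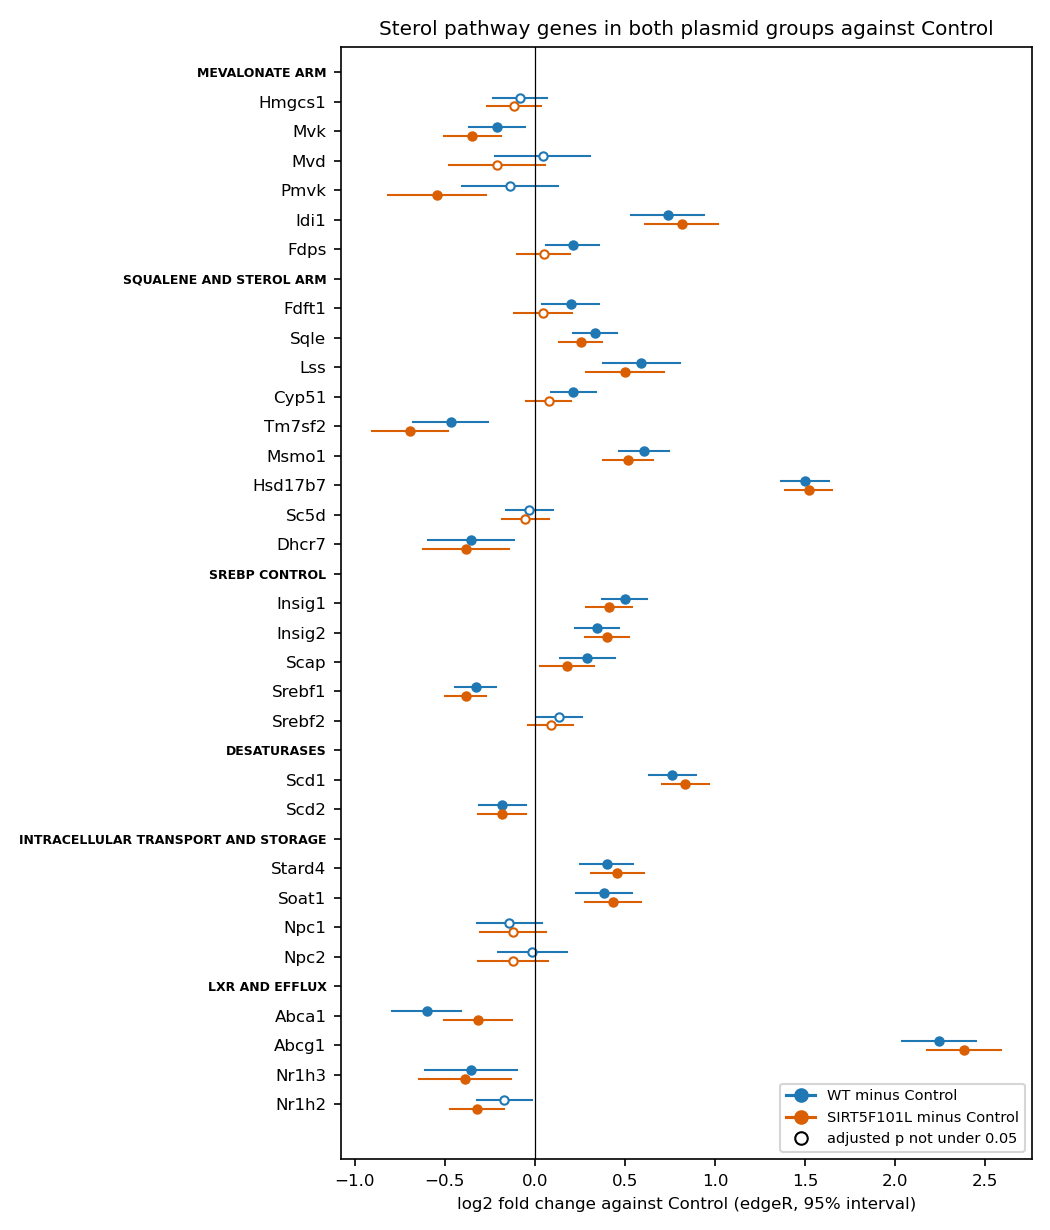
Log2 fold change of each of the 30 sterol genes against Control, with its 95% interval from edgeR, for WT and SIRT5F101L libraries (4 each), grouped by role in the pathway. Abcg1 lies farthest to the right at 2.24 and 2.38, Hsd17b7 follows at 1.50 and 1.52, and the remaining genes lie between -0.69 and 0.84.

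The DNA just upstream of the genes is shown for 4 of them, because the SREBP proteins act at sterol elements beside CCAAT boxes: Hmgcs1, the classic carrier of such an element, Hsd17b7 and Msmo1, which rose in both plasmid groups, and Abca1, which fell. Each window comes from RefSeq (GRCm38.p6), runs 5′ to 3′ from 250 bases before the transcript start to 50 after it, and is 300 bases long. Capitals mark the sterol element form TCACNCCAC, CCAAT on either strand (CCAAT or ATTGG) and the palindrome CACGTG, and no capital run overlaps another. They lie at chr13:119690101-119690400 (plus strand) for Hmgcs1, chr1:169969156-169969455 (minus strand) for Hsd17b7, chr8:64733529-64733828 (minus strand) for Msmo1 and chr4:53159846-53160145 (minus strand) for Abca1.
Hmgcs1: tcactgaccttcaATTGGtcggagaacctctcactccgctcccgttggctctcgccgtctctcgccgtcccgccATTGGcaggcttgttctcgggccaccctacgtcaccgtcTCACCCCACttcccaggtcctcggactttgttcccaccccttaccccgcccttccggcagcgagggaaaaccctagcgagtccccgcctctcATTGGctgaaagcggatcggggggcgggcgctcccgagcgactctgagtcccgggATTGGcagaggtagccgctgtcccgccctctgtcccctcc
Hsd17b7: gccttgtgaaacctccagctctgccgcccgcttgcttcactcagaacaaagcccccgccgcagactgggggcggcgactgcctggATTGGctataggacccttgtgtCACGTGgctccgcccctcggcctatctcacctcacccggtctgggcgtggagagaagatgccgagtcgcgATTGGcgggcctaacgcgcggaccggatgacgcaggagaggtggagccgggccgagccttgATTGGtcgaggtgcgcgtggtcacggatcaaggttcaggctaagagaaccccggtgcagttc
Msmo1: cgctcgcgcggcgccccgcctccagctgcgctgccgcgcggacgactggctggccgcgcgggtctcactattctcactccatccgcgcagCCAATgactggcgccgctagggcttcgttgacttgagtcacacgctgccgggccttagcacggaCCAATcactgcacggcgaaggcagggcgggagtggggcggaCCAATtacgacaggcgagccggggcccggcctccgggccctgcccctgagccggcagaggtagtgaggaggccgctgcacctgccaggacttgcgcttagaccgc
Abca1: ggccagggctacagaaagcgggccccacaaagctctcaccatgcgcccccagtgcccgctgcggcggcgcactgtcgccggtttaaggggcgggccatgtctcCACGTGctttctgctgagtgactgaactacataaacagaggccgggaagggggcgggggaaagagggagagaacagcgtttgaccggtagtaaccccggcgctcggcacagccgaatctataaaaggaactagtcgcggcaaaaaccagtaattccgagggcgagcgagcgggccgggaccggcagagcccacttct
Hmgcs1 held 1 sterol element form, TCACCCCAC, from 137 to 129 bases before the start, with 4 CCAAT boxes around it. Hsd17b7 and Msmo1 held 3 CCAAT boxes each, and Hsd17b7 also 1 CACGTG, while Abca1 held 1 CACGTG and no CCAAT. These 4 windows do not stand for the calls as a whole. Windows were found for 22 of the 30 genes, and a gene with several starts counted once if any of its windows held the motif. On either strand, CCAAT was in 18 of the 22 (81.8%), against 42.3% of the 10308 tested genes with a window and 41.1% of all genes with one. GGGCGG, the core of an SP1 site, which is not in capitals above, was in 19 (86.4%) against 67.2% of tested genes and 38.2% of all, and CACGTG in 6 (27.3%) against 11.5% and 8.09%. TCACNCCAC was in 1 of the 22 (4.55%), Hmgcs1, against 1.42% of tested genes and 1.44% of all. These are letter matches in a fixed window and show no binding. Other forms of the sterol element were not searched, so a gene without TCACNCCAC may still hold one. By call in WT, CCAAT was in 8 of 9 genes that rose, 4 of 6 that fell (Dhcr7, Mvk, Srebf1 and Tm7sf2) and 6 of 7 that were not called. In SIRT5F101L it was in 7 of 8 that rose, 5 of 8 that fell and 6 of 6 not called. The genes without CCAAT in their windows were Scap, Abca1, Nr1h3 and Nr1h2, and those with no window were Fdps, Fdft1, Sqle, Scd1, Scd2, Stard4, Npc1 and Abcg1.

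In the mevalonate arm, which makes the isoprenoid building blocks, 3 of 6 genes differed from Control in each plasmid group, 2 higher and 1 lower in WT and 1 higher and 2 lower in SIRT5F101L, a share of 50% below the 56.8% and 60.7% of all tested genes. The 1 gene that rose in both was Idi1, the isomerase that readies isopentenyl pyrophosphate for chain building. Its levels were 14.1, 16.6, 14.2 and 12.01 CPM in Control, 25.8, 20.8, 24.1 and 23.9 in WT and 24.1, 25.4, 25.4 and 25.3 in SIRT5F101L. Every plasmid library lay above every Control library. The rise was 0.74 on the log2 scale in WT (SE 0.10, edgeR adjusted p 1.84e-06) and 0.82 in SIRT5F101L (SE 0.10, adjusted p 4.20e-07). Of its longest transcript, 33.3% has near-identical copies in other genes. The processed pseudogene Gm13502 had the most aligned sequence and held 41 counts in all libraries together against 4713 for Idi1.

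Hmgcs1, a synthase early in the pathway, did not differ from Control by the test. Its libraries held 48.6, 53.5, 54.1 and 46.5 CPM in Control, 49.8, 46.3, 44.7 and 50.4 in WT and 50.4, 47.5, 44.5 and 44.7 in SIRT5F101L, so the 3 groups overlapped. The log2 difference was -0.08 in WT (95% interval -0.23 to 0.07, edgeR adjusted p 0.336) and -0.12 in SIRT5F101L (-0.27 to 0.03, adjusted p 0.171). Both intervals leave out a fall of more than 0.27 and a rise of more than 0.07. With a correction for transcript length and SIRT5F101L replicate 1 left out, added after the data were seen, the SIRT5F101L value was called lower (-0.19, adjusted p 0.0221). Of its exons, 12.1% overlap Gm48342, which held 0 counts.

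Pmvk, the kinase that acts on phosphomevalonate, was lower in SIRT5F101L. It stood at 15.5, 14.1, 15.4 and 14.5 CPM in Control, 11.5, 14.9, 12.6 and 15.3 in WT and 13.5, 9.35, 8.78 and 9.23 in SIRT5F101L. The single value of 13.5 belonged to replicate 1, and all 4 SIRT5F101L libraries still lay under every Control library. Against Control it fell by 0.54 on the log2 scale in SIRT5F101L (SE 0.13, edgeR adjusted p 0.00126) and by 0.71 without replicate 1 (adjusted p 3.32e-06). The WT value of -0.14 (SE 0.13, adjusted p 0.375) did not pass. Mvk, the kinase of the step before, fell by 0.21 in WT (edgeR adjusted p 0.0207) and by 0.35 in SIRT5F101L (adjusted p 0.000489), and the WT call was lost with library totals (-0.13, adjusted p 0.126), with a correction for transcript length (-0.15, adjusted p 0.0628), and without Control replicate 1 (adjusted p 0.0578) or 3 (adjusted p 0.0638).

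Fdps, which makes farnesyl pyrophosphate, rose from 92.6 ± 5.05 CPM (SD, n = 4) in Control to 107 ± 2.71 in WT, by 0.21 on the log2 scale (edgeR adjusted p 0.0154). This call was lost with upper-quartile scaling (adjusted p 0.0536) and without Control replicate 4 (adjusted p 0.0576). The SIRT5F101L mean was 95.8 ± 10.3 CPM, a log2 difference of 0.05 (adjusted p 0.565) that became -0.02 without replicate 1. Of the exons of Fdps, 26.7% overlap the protein-coding Gm43738, which held 0 counts. Mvd, the decarboxylase that forms isopentenyl pyrophosphate, gave 0.04 in WT (adjusted p 0.796) and -0.21 in SIRT5F101L (adjusted p 0.161), and without SIRT5F101L replicate 1 it passed as lower there, at -0.39 (adjusted p 0.000703).

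Between squalene and cholesterol, 8 of 9 genes differed from Control in WT, 6 higher and 2 lower, and 6 of 9 in SIRT5F101L, 4 higher and 2 lower. Beside these stand the 56.8% and 60.7% of all tested genes that differed, and the 28.7% that were higher in WT. In SIRT5F101L, 49.4% of all genes called were higher. The leading gene was Hsd17b7, the reductase that works with Msmo1 in stripping methyl groups from the sterol ring. It measured 28.6, 31.3, 29.6 and 28.2 CPM in Control, 82.4, 82.8, 84.3 and 83.6 in WT and 80.0, 85.4, 81.5 and 90.7 in SIRT5F101L. Both plasmid groups were close to each other and far above Control, with no overlap. The log2 fold change was 1.50 in WT (SE 0.06, edgeR adjusted p 4.56e-14), a 2.83-fold rise, and 1.52 in SIRT5F101L (SE 0.06, adjusted p 3.57e-14), a 2.87-fold rise. No exon of Hsd17b7 overlaps another annotated gene.

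Msmo1, the methylsterol oxidase, rose from 69.9 ± 5.13 CPM to 106 ± 7.18 in WT and 100.1 ± 4.10 in SIRT5F101L (SD, n = 4), by 0.60 and 0.52 on the log2 scale (SE 0.07 in both, edgeR adjusted p 1.79e-07 and 1.35e-06). Lss, which folds squalene epoxide into lanosterol, rose from a low level of 10.4 ± 1.28 CPM to 15.7 ± 1.02 and 14.7 ± 0.923, by 0.59 and 0.50 (adjusted p 5.74e-05 and 0.000306). Both genes were higher in every plasmid library than in any Control library.

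Sqle, squalene epoxidase and a rate-limiting step of the later pathway, rose less. Control libraries held 105, 99.7, 104 and 101.1 CPM, WT libraries 117, 130.4, 136 and 133, and SIRT5F101L libraries 124, 127, 119 and 119. Neither plasmid group reached down into the Control range. The log2 rise was 0.33 in WT (SE 0.06, edgeR adjusted p 5.99e-05) and 0.25 in SIRT5F101L (SE 0.06, adjusted p 0.000818). With a correction for transcript length the SIRT5F101L rises of Sqle (0.15, adjusted p 0.0318) and Lss (0.27, adjusted p 0.0299) were smaller and still called. The same correction with SIRT5F101L replicate 1 left out brought the SIRT5F101L value to 0.12 (adjusted p 0.0732), and in the same setting the calls of Lss (0.22, adjusted p 0.0783) and Soat1 (0.14, adjusted p 0.0562) were lost too.

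Tm7sf2, a sterol reductase, went the other way. Its levels were 13.5, 13.5, 13.9 and 13.5 CPM in Control, 10.6, 9.87, 10.6 and 8.38 in WT and 8.55, 8.76, 8.21 and 8.15 in SIRT5F101L. All 8 plasmid libraries lay below the Control libraries. It fell by 0.47 in WT (SE 0.10, edgeR adjusted p 0.000497) and by 0.69 in SIRT5F101L (SE 0.10, adjusted p 6.48e-06) on the log2 scale. Of the exons of Tm7sf2, 12.1% overlap Vps51. Dhcr7, the reductase of a final step, fell by 0.35 in WT (adjusted p 0.0128) and by 0.38 in SIRT5F101L (adjusted p 0.00682). The WT call of Dhcr7 was lost without Control replicate 2 (-0.26, adjusted p 0.0673) and with library totals (-0.27, adjusted p 0.0594).

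Cyp51, the lanosterol demethylase, and Fdft1, squalene synthase, rose in WT by 0.21 and 0.20 on the log2 scale (edgeR adjusted p 0.00477 and 0.0322). In SIRT5F101L their values were 0.08 (adjusted p 0.281) and 0.05 (adjusted p 0.631), and the difference between the plasmid groups did not pass the test for either gene (adjusted p 0.390 for Cyp51 and 0.431 for Fdft1). The WT call of Fdft1 was lost in 7 of 20 alternatives, with a lowest value of 0.13 (adjusted p 0.157) without WT replicate 4. Of the exons of Fdft1, 18.3% are shared with Ctsb. Of its longest transcript, 54.7% has near-identical copies in other genes, the pseudogene Gm6781 having the most aligned sequence. Sc5d, a sterol desaturase, gave -0.03 in WT (95% interval -0.16 to 0.10, adjusted p 0.690) and -0.05 in SIRT5F101L (-0.18 to 0.08, adjusted p 0.470). With library totals Cyp51 was called higher in SIRT5F101L (0.16, adjusted p 0.0223), and with a correction for transcript length Sc5d was called lower there (-0.18, adjusted p 0.0148).

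Among the genes of SREBP control, both INSIG genes rose while Srebf1 fell. Insig1 encodes a sterol-dependent anchor of SCAP and is itself a target of SREBP. Its libraries held 72.0, 70.0, 78.6 and 75.8 CPM in Control, 100.6, 104, 105 and 109 in WT and 102, 90.8, 100.9 and 100.5 in SIRT5F101L. The groups did not overlap with Control, and the lowest plasmid library was SIRT5F101L replicate 2. On the log2 scale Insig1 rose by 0.50 in WT (SE 0.06, edgeR adjusted p 6.17e-07) and by 0.41 in SIRT5F101L (SE 0.06, adjusted p 7.04e-06).

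Insig2, the second anchor, measured 82.4, 79.8, 82.8 and 84.5 CPM in Control, 98.2, 106, 103 and 112 in WT and 114, 110.5, 106 and 105 in SIRT5F101L. Here too every plasmid library exceeded every Control library. The rise was 0.35 in WT (SE 0.06, edgeR adjusted p 3.65e-05) and 0.40 in SIRT5F101L (SE 0.06, adjusted p 5.69e-06). Scap, the escort protein, 13.2% of whose exons overlap another annotated gene, rose by 0.29 in WT (adjusted p 0.00199) and by 0.18 in SIRT5F101L (adjusted p 0.0399). The latter call was lost in 8 of 20 alternatives, among them upper-quartile scaling (adjusted p 0.117), a correction for transcript length (adjusted p 0.234) and leaving out Control replicate 2 or 3, WT replicate 3, or SIRT5F101L replicate 2 or 4 (adjusted p 0.0507 to 0.162).

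Srebf1 encodes the SREBP isoforms that favour fatty acid genes and respond to LXR. It had 178, 174, 180.1 and 184 CPM in Control, 139.9, 150.5, 143 and 136 in WT and 138, 132, 136 and 141 in SIRT5F101L. Every plasmid library lay below the Control libraries. The fall was -0.33 in WT (SE 0.05, edgeR adjusted p 2.73e-05) and -0.39 in SIRT5F101L (SE 0.05, adjusted p 3.75e-06) on the log2 scale. Counts per gene do not separate the Srebf1 isoforms.

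Srebf2 encodes the isoform that favours cholesterol genes. Its levels were 138, 128, 142 and 129 CPM in Control, 145, 144, 157 and 143 in WT and 139.7, 139, 138 and 153 in SIRT5F101L. The WT libraries all lay above Control, and the SIRT5F101L libraries overlapped with it. The log2 difference of 0.14 in WT (95% interval 0.01 to 0.26) did not pass after adjustment (edgeR adjusted p 0.0595), and neither did 0.09 in SIRT5F101L (-0.04 to 0.21, adjusted p 0.214). The WT value was called higher in 4 of 20 alternatives: with library totals (0.22, adjusted p 0.00326), in a fit of the 8 libraries compared (0.15, adjusted p 0.0212), without Control replicate 3 (0.16, adjusted p 0.0418) and without SIRT5F101L replicate 1 (0.14, adjusted p 0.0353). The SIRT5F101L value was called higher with library totals (0.17, adjusted p 0.0146), and a correction for transcript length turned it to -0.06.

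**Figure D2:**
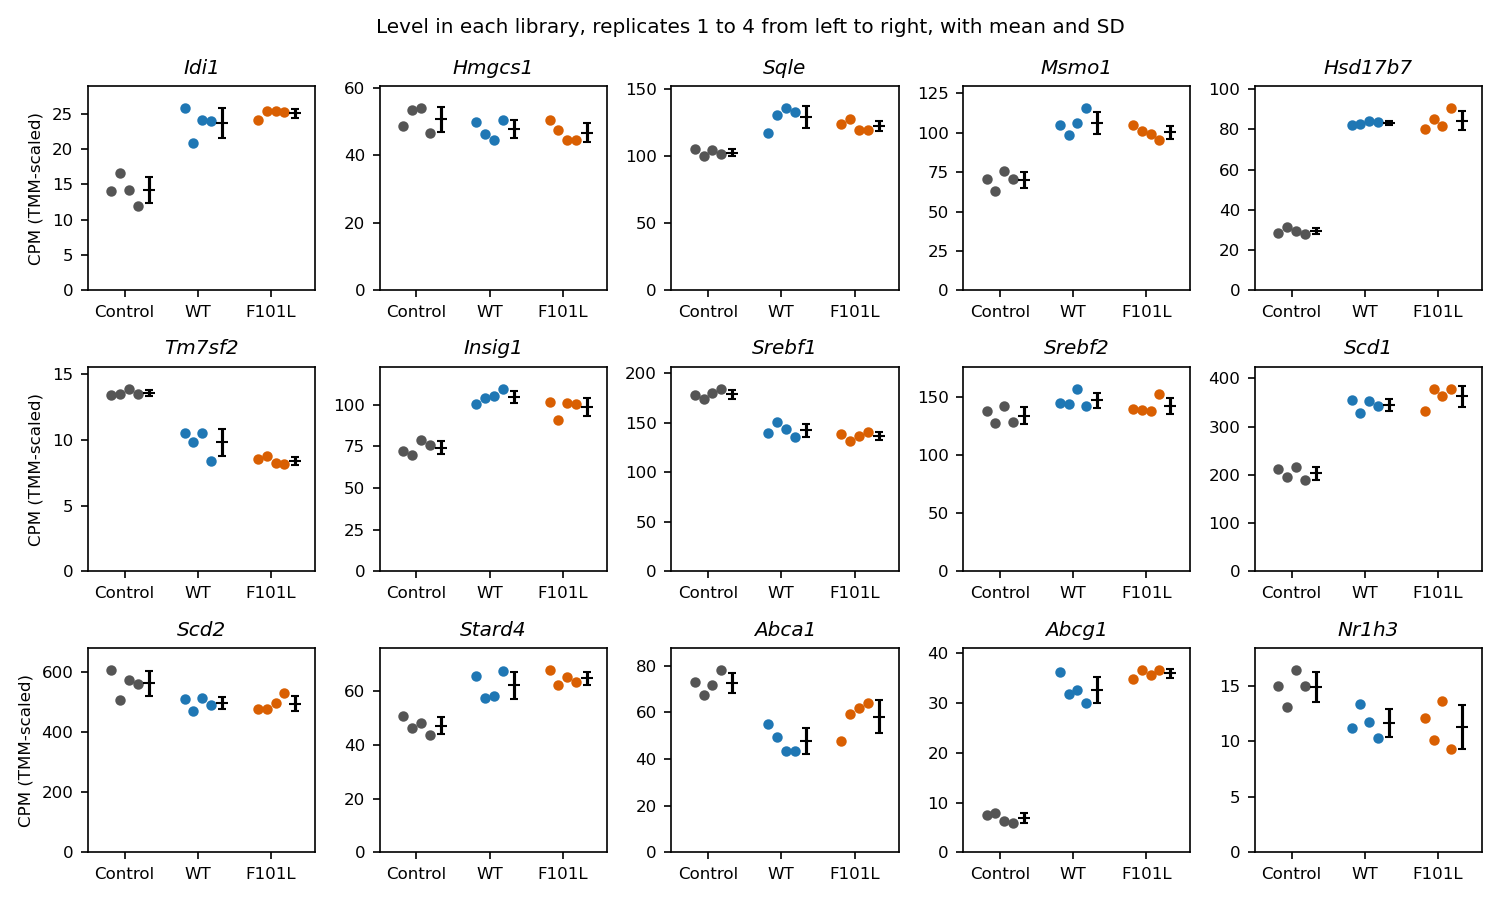
TMM-scaled CPM of sterol genes in each of the 12 libraries (points, replicates 1 to 4 from left to right), with the mean and SD of the 4 libraries of each treatment, where F101L stands for SIRT5F101L. Hsd17b7, Idi1, Scd1 and Abcg1 show no overlap between Control and either plasmid group, while Hmgcs1 overlaps in all 3 groups.

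The stearoyl-CoA desaturases, which put the double bond into oleate and so supply the fatty acid for sterol esters, moved apart. Scd1 measured 212, 195, 217 and 189 CPM in Control, 354, 329, 353 and 343 in WT and 332, 377, 363 and 378 in SIRT5F101L. The plasmid libraries lay far above Control without overlap, with log2 rises of 0.76 in WT (SE 0.06, edgeR adjusted p 1.84e-09) and 0.84 in SIRT5F101L (SE 0.06, adjusted p 4.18e-10). Scd2 measured 607, 507, 574 and 561 CPM in Control, 510.1, 471, 514 and 489 in WT and 477, 477, 496 and 531 in SIRT5F101L.

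Scd2 was slightly lower, and 1 or more libraries of each plasmid group lay within the Control range. It fell by 0.18 in both groups (SE 0.06, edgeR adjusted p 0.0188 in WT and 0.0164 in SIRT5F101L). Both calls of Scd2 were lost with library totals (-0.10, adjusted p 0.162 and 0.159) and without Control replicate 1 (adjusted p 0.0786 and 0.0680), the WT call also without WT replicate 2 (adjusted p 0.0690), and the SIRT5F101L call in a fit of the 8 libraries compared (adjusted p 0.0520). A correction for transcript length made both falls larger (-0.30 and -0.36). Of the longest Scd2 transcript, 11.4% has copies of at least 95% identity in other genes, Scd1 having the most aligned sequence. Some reads of Scd1 and Scd2 may therefore have been assigned to the other gene or left out. Scd1 is abundant in adipocytes. Of the 4 adipocyte markers 1, Fabp4, passed the filter and was called higher in both plasmid groups. Adipoq and Plin1, below the filter, were lower in both, and the 4 together came to at most 37.8 CPM in a library. The part of adipocytes in the Scd1 rise was not tested.

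In intracellular transport and storage, 2 of 4 genes rose in both groups and none fell by the test. That share of 50% called lies below the 56.8% and 60.7% of all tested genes that differed, 28.7% being higher in WT. In SIRT5F101L, 49.4% of all genes called were higher. Stard4 carries cholesterol between membranes and is a target of SREBP. Control libraries held 51.0, 46.3, 48.2 and 43.7 CPM of Stard4, WT libraries 65.7, 57.6, 58.3 and 67.6, and SIRT5F101L libraries 68.0, 62.6, 65.5 and 63.5. The groups did not overlap with Control. It rose by 0.40 in WT (SE 0.07, edgeR adjusted p 6.97e-05) and by 0.46 in SIRT5F101L (SE 0.07, adjusted p 1.28e-05). With a correction for transcript length and SIRT5F101L replicate 1 left out, the latter was 0.25 (adjusted p 0.00199).

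Soat1, the enzyme that esterifies cholesterol for storage in droplets, had 71.5, 65.9, 59.0 and 73.6 CPM in Control, 91.6, 84.5, 91.8 and 83.8 in WT and 82.3, 93.0, 90.2 and 98.5 in SIRT5F101L. All plasmid libraries exceeded the highest Control library. The log2 rise was 0.38 in WT (SE 0.07, edgeR adjusted p 0.000191) and 0.43 in SIRT5F101L (SE 0.07, adjusted p 4.64e-05). With a correction for transcript length these rises were 0.22 (adjusted p 0.00299) and 0.16 (adjusted p 0.0256). Npc1 and Npc2, which together move cholesterol out of the lysosome, gave log2 values of -0.14 (95% interval -0.32 to 0.04) and -0.01 (-0.21 to 0.18) in WT and of -0.12 (-0.30 to 0.06) and -0.12 (-0.32 to 0.07) in SIRT5F101L. None of these passed (edgeR adjusted p 0.178, 0.914, 0.243 and 0.263). With a correction for transcript length, however, Npc1 was called lower in WT (-0.27, adjusted p 0.00214) and in SIRT5F101L (-0.31, adjusted p 0.000464). Npc2 was called lower in SIRT5F101L without replicate 1 (-0.24, adjusted p 0.00235), which had the highest Npc2 level of the group.

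The exporters moved in opposite directions. Abcg1, which passes cholesterol to high-density lipoprotein, showed the largest change of the 30 genes. Its libraries held 7.49, 7.90, 6.33 and 5.84 CPM in Control (107 to 156 counts), 36.2, 31.9, 32.5 and 30.01 in WT and 34.8, 36.7, 35.7 and 36.6 in SIRT5F101L. The lowest plasmid library was several times above the highest Control library. Abcg1 rose 4.74-fold in WT (log2 2.24, SE 0.10, edgeR adjusted p 9.22e-14) and 5.21-fold in SIRT5F101L (log2 2.38, SE 0.10, adjusted p 3.17e-14).

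Abca1, which loads cholesterol onto apolipoprotein A-I, fell. It stood at 73.0, 67.3, 71.8 and 78.2 CPM in Control, 55.0, 49.4, 43.5 and 43.4 in WT and 47.8, 59.1, 61.9 and 63.9 in SIRT5F101L. All plasmid libraries lay below Control, and SIRT5F101L replicate 1 was the lowest of its group, within the range of WT. The fall was -0.60 in WT (SE 0.09, edgeR adjusted p 1.23e-05) and -0.32 in SIRT5F101L (SE 0.09, adjusted p 0.00500), the latter -0.23 without replicate 1 (adjusted p 0.00735) and -0.63 with a correction for transcript length (adjusted p 2.89e-09). The WT value moved as well, from -0.78 to -0.52 over the 20 alternatives.

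The LXR genes were lower, not all past the test. Nr1h3, for LXR-alpha, fell by 0.35 in WT (edgeR adjusted p 0.0189) and by 0.39 in SIRT5F101L (adjusted p 0.00991), both calls being lost with a correction for transcript length (-0.26, adjusted p 0.0590, and -0.25, adjusted p 0.0672). The WT call of Nr1h3 was also lost with library totals (adjusted p 0.0641), without Control replicate 3 (adjusted p 0.0645) and without WT replicate 4 (adjusted p 0.0653). Nr1h2, for LXR-beta, fell by 0.32 in SIRT5F101L (SE 0.07, adjusted p 0.000772), or by 0.19 with the length correction (adjusted p 0.00627). Its WT value was -0.17 (adjusted p 0.0521), and no WT library overlapped with Control. The WT value was called lower in 6 of 20 alternatives: with upper-quartile scaling (-0.22, adjusted p 0.0118), with a filter on mean CPM (adjusted p 0.0462), in a fit of 8 libraries (adjusted p 0.0144), and without WT replicate 2 (adjusted p 0.0476), SIRT5F101L replicate 1 (adjusted p 0.00659) or SIRT5F101L replicate 2 (adjusted p 0.0468). Both exporters and LXR-alpha are abundant in macrophages, and the 8 tested macrophage and leukocyte markers were lower in 8 of 8 cases in WT and 7 of 8 in SIRT5F101L, where 28.1% and 30.7% of all tested genes were. The part of macrophages in the changes of these genes was not tested.

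Levels between genes can be compared only per transcript length. Per kilobase of the longest annotated transcript, Npc2 led in Control with 319.6 ± 25.0 CPM per kilobase (SD, n = 4), followed by Scd2 at 103 ± 7.68, Nr1h2 at 57.4 ± 1.73, Scd1 at 42.1 ± 2.83 and Srebf1 at 41.6 ± 1.03. The pair at 42.1 and 41.6 did not differ beyond its spread. The lowest were Lss at 1.49 and Abcg1 at 1.18. In WT and SIRT5F101L, Scd1 stood at 71.4 and 75.1 CPM per kilobase, above Nr1h2 at 51.0 and 45.9. With the median transcript length in place of the longest, Npc2 remained at rank 1, Scd1 stood at rank 2 and Scd2 at rank 7, so the order below the top depends on which transcript is taken.

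**Figure D3:**
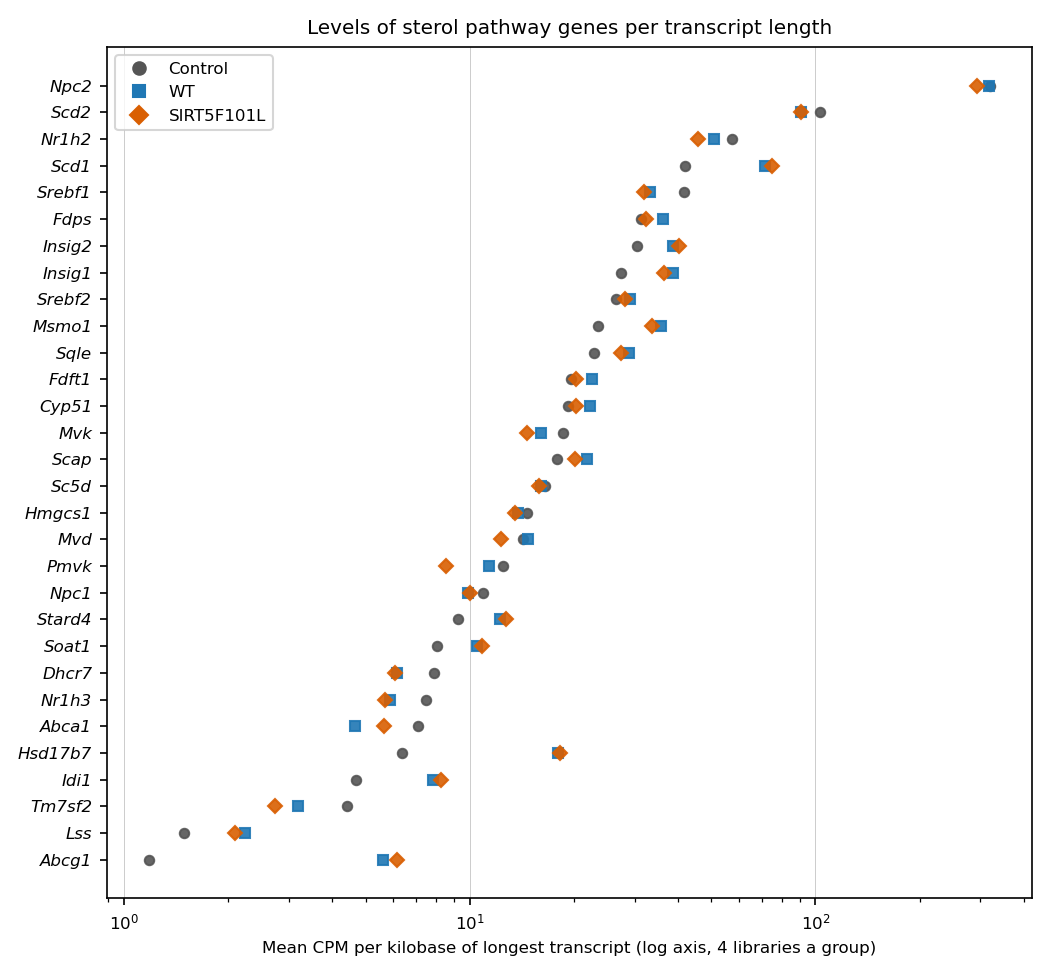
Mean TMM-scaled CPM per kilobase of longest transcript (log axis) of the 30 sterol genes in Control, WT and SIRT5F101L, 4 libraries each, ordered by Control. Npc2 stands alone near 319.6 in Control, and Hsd17b7 and Abcg1 show the widest gaps between Control and the plasmid groups.

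Whether the mutant plasmid differed from the wildtype plasmid was tested in the same fit. None of the 30 genes differed by edgeR's test with all 12 libraries, where 0.0421% of all tested genes did, 6 of 14253. At an unadjusted p under 0.05 there were 5 of the 30, Pmvk, Fdps, Cyp51 and Tm7sf2 lower and Abca1 higher in SIRT5F101L, against 11.9% of all tested genes. DESeq2 also called 0. The groups did not overlap for 1 of the 30, Cyp51, and for 4.02% of all tested genes. For the genes that changed most against Control, the interval of the difference was -0.11 to 0.14 for Hsd17b7, -0.04 to 0.32 for Abcg1 and -0.05 to 0.20 for Scd1 on the log2 scale. Differences up to those bounds remain compatible with the data.

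This count changed without SIRT5F101L replicate 1. With that library left out, 6 of the 30 genes differed between the plasmid groups by edgeR's test, when 2212 of 14528 tested genes (15.2%) did. The log2 difference was -0.57 for Pmvk (edgeR adjusted p 0.00111), -0.43 for Mvd (adjusted p 0.00242), -0.24 for Nr1h2 (adjusted p 0.00507), -0.23 for Fdps (adjusted p 0.00910) and -0.23 for Npc2 (adjusted p 0.0191), all lower in SIRT5F101L. Abca1 was higher there, at 0.37 (adjusted p 0.00114). Mvd shows the pattern, with 24.6, 28.2, 29.4 and 25.5 CPM in WT and 30.7, 17.7, 20.9 and 21.0 in SIRT5F101L, where replicate 1 is the highest value and the other 3 lie below every WT library.

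The genes that were lower had longest transcripts of 1194 bases for Pmvk, 1833 for Mvd, 1999 for Nr1h2, 2953 for Fdps and 3299 for Npc2, and Abca1 has 10262, where the median of tested genes was 3219. The other sterol genes shorter than Fdps were not called without SIRT5F101L replicate 1. They were Nr1h3 (1985 bases, log2 -0.06), Mvk (2380, -0.20), Insig1 (2697, -0.10), Insig2 (2697, 0.03) and Dhcr7 (2815, 0.01). With a correction for transcript length and the same library left out, 6 genes were called, and all were lower in SIRT5F101L: Pmvk, Mvd, Fdps, Npc2, Nr1h2 and Cyp51. In that setting Abca1 was no longer called (0.15, edgeR adjusted p 0.151), and 8.35% of all tested genes were. No sterol gene was called when any other single library was left out. With no filter beyond 1 count and all 12 libraries, Pmvk (-0.41, adjusted p 0.0496) and Abca1 (0.28, adjusted p 0.0409) were called, when 354 of 25722 tested genes were.

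The rest of the pathway was read from a list of 79 further genes, of which 71 were tested. In the list, 5 genes were at 0 in every library, Nsdhl, Ebp, Mbtps2, Mid1ip1 and Hsd3b7. All 2414 IDs placed on the X chromosome were at 0. The 0 of the X-linked genes, here Nsdhl, Ebp, Mbtps2 and Mid1ip1, therefore does not show that they were silent. By edgeR's test, 51 of the 71 differed in WT, 24 higher and 27 lower, and 49 in SIRT5F101L, 23 higher and 26 lower, against the same backgrounds of 56.8% and 60.7%. None differed between the plasmid groups. At an unadjusted p under 0.05 by edgeR there were 8 of the 71, against 11.9% of all tested genes. Its 10 tested synthesis genes held 6 higher and 3 lower in WT and 6 higher and 2 lower in SIRT5F101L. The 16 tested genes of efflux, oxysterols and LXR response held 4 higher and 11 lower in WT and 4 higher and 10 lower in SIRT5F101L. Of all tested genes, 28.7% were higher and 28.1% lower in WT, and 30.7% lower in SIRT5F101L, where 49.4% of all genes called were higher.

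Lrp8, a lipoprotein receptor, rose from 11.5 ± 0.642 CPM (SD, n = 4) to 30.2 ± 1.64 in WT and 27.8 ± 3.23 in SIRT5F101L, by 1.40 and 1.27 on the log2 scale (edgeR adjusted p 7.06e-11 and 2.92e-10). Acly, which supplies acetyl-CoA to both sterol and fatty acid synthesis, rose by 0.75 and 0.73 (adjusted p 1.27e-10 and 1.88e-10). Ch25h, which makes an oxysterol and is known as an interferon-induced gene, rose from 3.88 ± 0.826 CPM to 13.1 ± 2.09 and 17.6 ± 1.54, by 1.75 and 2.18 (adjusted p 3.89e-09 and 9.98e-11). Its log2 difference of 0.42 between the plasmid groups did not pass (adjusted p 0.330).

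Among the carriers of exported lipid, Pltp, the phospholipid transfer protein, fell from 159 ± 11.5 CPM to 21.6 ± 0.721 in WT and 21.6 ± 2.09 in SIRT5F101L, a log2 fold change of -2.88 in both (edgeR adjusted p 3.95e-17 and 3.07e-17). Apoe, the apolipoprotein that accepts sterol outside the cell, fell from 123 ± 7.69 CPM to 18.2 ± 1.45 and 17.6 ± 2.18, with log2 fold changes of -2.76 and -2.81 (adjusted p 4.83e-16 and 3.62e-16). Cyb5r3, a reductase that passes electrons to sterol oxidases among other enzymes, fell as well, at -1.31 and -1.33 (adjusted p 4.41e-13 and 3.30e-13). Cyp7b1, which clears oxysterols, had low levels of 2.98 ± 0.788 CPM in Control, 1.96 ± 0.463 in WT and 2.16 ± 0.435 in SIRT5F101L, and fell by 0.59 in WT (adjusted p 0.0442), while its SIRT5F101L value of -0.47 did not pass (adjusted p 0.0977). Apoe and Pltp are also made by macrophages and fibroblasts, whose marker sums fell in the same libraries while Pdgfra rose, and the part of those cells was not tested.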

How the data were processed

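RNA counts of 12 libraries, 4 each for Control, WT and SIRT5F101L, were analysed. Each deposited file lists a whole-number count for every Ensembl gene ID. Per the submitters' processing notes, FastQC 0.11.9, HISAT2 2.2.1, HTSeq 2.0.2 and DESeq2 1.38.3 were used with GRCm39 (mm39), and the strand setting is not given in the sources used here. Symbols were matched for 52029 of 57010 IDs. The groups follow the treatment label, and replicate numbers only name libraries in order of deposition.

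The counts as deposited were fitted with edgeR 4.0.16 (R 4.3.3): TMM scaling, the default expression filter by group (14253 genes kept), 1 mean per group over all 12 libraries with 9 residual degrees of freedom, 2-sided quasi-likelihood tests and Benjamini-Hochberg adjustment over all genes tested. Genes with an adjusted p under 0.05 were called. Dispersion was 0.00844 in common, or 9.18% as a biological coefficient of variation. Standard errors and 95% intervals come from the F statistic, and levels are TMM-scaled CPM, given for single libraries or as mean ± SD. The pipeline was tested on simulated data with known changes. No 2 libraries were identical, and within groups the median chi-square between libraries was 2.55 to 8.92 times its sampling-noise value.

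Transcript lengths, exon overlaps and copies of at least 95% identity over at least 100 bases came from GENCODE M21, whose build is GRCm38, so its coordinates were not joined to the counts. Promoter windows came from RefSeq and were searched on both strands. Proteins were not used here.

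Alternatives were RLE, upper-quartile and total-count scaling, 2 other filters, fits of 8 libraries, DESeq2 1.42.0, a loess trend on transcript length (span 0.5) as an offset, and leaving out each library in turn, 20 in all. The length trend with SIRT5F101L replicate 1 left out was added after the data were seen. The genes and lists were chosen with earlier results of these data known. All 30 genes are accounted for. Values in every library are given for Hmgcs1, Sqle, Insig1, Srebf1, Srebf2, Abca1 and, in each role, for the 2 called genes with the largest change in either plasmid group. Of the further pathway genes, the 3 with the lowest adjusted p in each direction against Control are named, with Ch25h and Cyp7b1, apart from a gene that is not reported here. Per-library values of Mvd were chosen for print after they were seen.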

Additional observations from a re-analysis of the deposited data

Results flagged for a closer look

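In 9 of 90 sets of 4 libraries, 1 for each sterol gene and treatment, the highest or lowest library stood apart by a gap above Dixon's 95% critical value, where chance gives about 1 in 20. Pmvk was at 13.5 CPM in SIRT5F101L replicate 1, the others of that group lying at 8.78 to 9.35. Idi1 was at 24.1 CPM in the same library, the others at 25.3 to 25.4. Srebf2 was at 153 CPM in SIRT5F101L replicate 4, the others at 138 to 139.7. Insig1 was at 90.8 CPM in SIRT5F101L replicate 2, the others at 100.5 to 102. Lss was at 16.1 CPM in SIRT5F101L replicate 3, the others at 14.2 to 14.3. In WT replicate 4, Cyp51 was at 93.9 CPM, with the others at 84.7 to 86.2, and Scap was at 82.7 CPM, with the others at 94.8 to 96.4. Dhcr7 was at 19.8 CPM in WT replicate 1, the others at 16.4 to 16.9. Tm7sf2 was at 13.9 CPM in Control replicate 3, where the others held 13.5 each.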

How the results depend on the processing

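Of the 20 alternatives, all kept the call and direction of 16 of 22 sterol genes called in WT and of 18 of 21 in SIRT5F101L, both against Control. The exceptions were Mvk, Fdps, Fdft1, Dhcr7, Scd2 and Nr1h3 in WT and Scap, Scd2 and Nr1h3 in SIRT5F101L. No called gene reversed. Genes not called with all libraries and TMM scaling that gained a call in 1 or more of the 20 were Srebf2, Npc1 and Nr1h2 in WT and Mvd, Cyp51, Sc5d, Srebf2, Npc1 and Npc2 in SIRT5F101L. With library totals only, 3 genes rather than 7 were lower in WT, and that scaling moved the median of all genes by 0.08 in both comparisons. Between the plasmid groups, the count of 0 became 2 (1 higher, 1 lower) with no filter beyond 1 count, when 354 of 25722 tested genes were called, ranged from 0 to 6 (0 to 1 higher, 0 to 5 lower) over the leave-one-out fits, and became 6, all lower, with the length trend and SIRT5F101L replicate 1 left out. The cause was not tested.

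The values that changed sign all lay near 0 and were not called. In WT against Control, Mvd (0.04) became -0.0075 with upper-quartile scaling and ranged from -0.0023 to 0.1065 over the leave-one-out fits. Sc5d (-0.03) became 0.0494 and Npc2 (-0.01) 0.0678 with library totals, and Npc2 became 0.0018 with 8 libraries and ranged from -0.0633 to 0.0303 on leaving out 1 library. In SIRT5F101L against Control, Fdps (0.05) ranged from -0.0216 to 0.0999 on leaving out 1 library, Sc5d (-0.05) became 0.0296 with library totals, and Srebf2 (0.09) became -0.0635 with the length trend. With that trend and SIRT5F101L replicate 1 left out, Fdft1 became -0.0402, Cyp51 -0.0211 and Srebf2 -0.0857. Between the plasmid groups, the length trend gave -0.0164 for Hsd17b7, -0.0633 for Soat1, -0.0450 for Npc1 and 0.0106 for Nr1h3. With SIRT5F101L replicate 1 left out as well, it gave -0.0150 for Hsd17b7, 0.0260 for Dhcr7, -0.0450 for Stard4, -0.0868 for Soat1, -0.0205 for Npc1 and 0.0108 for Nr1h3. Scd2 (-0.0023) became 0.0031 with RLE and with upper-quartile scaling, 0.0009 with library totals and 0.0013 with DESeq2. Over the leave-one-out fits, Hsd17b7 ranged from -0.0182 to 0.0450, Sc5d from -0.0638 to 0.0039, Dhcr7 from -0.0637 to 0.0378, Scd2 from -0.0388 to 0.0172, Npc1 from -0.0288 to 0.0848 and Nr1h3 from -0.147 to 0.0471.

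No paired analysis was possible because the sample titles carry no number that groups share. With 4 libraries a group, single values rest on the spread of 9 residual degrees of freedom. Every sterol gene had at least 107 counts in each library, and whether depth limited the calls was not tested. Counting without a stated strand leaves overlaps of over 10% of exons unresolved for 5 sterol genes: Fdps (26.7%), Fdft1 (18.3%), Scap (13.2%), Hmgcs1 (12.1%) and Tm7sf2 (12.1%).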
